A study of Mus musculus with 36 samples.

Results

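The 1 to 4 h step of the response to stimulation was described in mouse T cells that carry no working Malt1 gene. The members are the 4 arrays labelled as homozygous at 4 h and the 4 arrays labelled as homozygous at 1 h, chosen by their labels alone, 8 of the 36 arrays of the series. The labels give the genotype of these cells as Malt1-/- and the strain as B6.C-Tg(CMV-cre)1Cgn/J, a line that carries Cre recombinase under the ubiquitously active CMV promoter. All 36 arrays share that strain label, the heterozygous ones included. The cells set beside them are T cells with a single Malt1 allele that holds the paracaspase point mutation (Malt1PM/-, 4 arrays at 4 h and 4 at 1 h) and T cells with 1 working allele (Malt1+/-, 4 and 4). Each genotype was also sampled without stimulation, called 0 h here. The labels describe total T cells, depleted of B220-positive and CD11b-positive cells on magnetic beads, as well as CD4+ T cells. As stimuli they describe PMA with ionomycin and plate-bound antibodies to CD3 and CD28. They do not say which cells or which stimulus these arrays hold. The ages of the mice are not given. The design text counts 3 biological replicates while the labels list 4, and neither says that they are separate mice, so each p-value measures the spread between these samples, which may be technical.

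MALT1 is a scaffold and a protease. After engagement of the T cell receptor it joins BCL10 in a complex that recruits TRAF6 and the IKK kinases and so activates NF-kB, and its paracaspase activity cuts proteins such as A20, CYLD, RelB, Regnase-1 and Roquin. The receptor also drives branches that do not pass through this complex, among them the MAP kinase pathway to AP-1 and the calcium and calcineurin pathway to NFAT. An activated T cell first transcribes immediate early genes, and later genes for cytokines, nutrient uptake, ribosome assembly and nucleotide synthesis, while genes of the quiescent state are shut off.

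Total RNA was labelled and hybridised to 1-colour Illumina bead arrays. Between 7713 and 10291 of 25697 probes were detected on an array (detection p under 0.01), and between 7713 and 9721 on the 8 Malt1-/- arrays, the fewest on both arrays of replicate 4. Signals were corrected for background, quantile-normalized and given as log2 values, and 7585 genes were tested with limma in 1 fit over all arrays. The threshold was an adjusted p (Benjamini-Hochberg) under 0.05, and rose and fell are used of such genes only. The 10 measured T cell identity markers were detected on all 8 arrays. Values of 4 arrays are always listed in the order of replicates 1 to 4, and a level of 1 gene cannot be set against that of another, since each has its own probe.

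Malt1 itself, the deleted gene, had log2 signals of 5.49, 6.24, 5.70 and 5.84 at 4 h, against 4.74, 4.78, 4.71 and 4.42 at 1 h. The 4 h values lay above all 1 h values, and its probe was detected on 4 of 4 arrays at 4 h and on 0 of 4 at 1 h. The 4 h signal was at least 1.8-fold that at 1 h (limma adjusted p = 9.13e-05). At 4 h the Malt1+/- arrays read 6.96, 7.56, 7.43 and 7.21, all above the Malt1-/- arrays of that time. Whether the probe lies outside the deleted part is not known, and if it does it checks nothing.

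Of the 7585 genes tested, 3381 changed between 4 h and 1 h in Malt1-/- cells (44.6%), 1702 upward (22.4%) and 1679 downward (22.1%). At least 2-fold changes were reached by 596 of the rises and 670 of the falls. The median change over all genes was -0.0124. Each count of list members below is to be set beside the shares of all genes, 22.4% upward and 22.1% downward. The 4 values at 4 h and the 4 values at 1 h did not overlap for 2889 genes (38.1%), 2726 of them among the genes that passed. With median scaling of the arrays in place of quantile normalization, 1503 genes passed, 967 upward and 536 downward, so that the rises made up 64.3% of the calls, against 50.3% in the quantile-normalized values. Without replicate 4 in all groups, 3209 genes passed. With the replicate number as a further term of the fit, called the replicate block here, 4000 passed, and its counts are given where they differ by over 1.5 times. Among genes named below, the calls of Mcl1, Mcm4, Mcm5, Gapdh, Hprt, Myc, E2f3, Tsr1, Irgm2, Ltv1, Csf2, Mcm5, Cep19, Il13, Gapdh, Ldha, Hprt, Rpl19, Cd69, Nfkbie, Cyld, Cd8b1, Mcl1, Klhl6, Zc3h12a, Bcl10, Mcm4, Irf7, Slc2a3, Ctla4, Nfkbiz, Egr2, Ccng2, Klf6, Dusp1 and Cxcr4 were lost under median scaling with their direction kept.

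Of the 15 largest rises without overlap, Bcat1 and Akr1c18 ranked highest. Bcat1, the cytosolic branched-chain amino acid transaminase, had log2 signals of 8.69, 8.86, 9.71 and 9.70 at 4 h, against 4.21, 4.22, 4.22 and 4.50 at 1 h. Its probe was above background on 4 of 4 arrays at 4 h and on none at 1 h, which makes the rise at least 19.4-fold (limma adjusted p = 2.37e-16). Tnfrsf9, the costimulatory receptor 4-1BB, read 8.72, 9.21, 9.51 and 9.58 at 4 h, against 4.74, 4.56, 4.77 and 4.85 at 1 h. It was likewise detected only at 4 h among these 8 arrays, an at least 19.6-fold rise (limma adjusted p = 4.06e-19).

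Xcl1, the chemokine lymphotactin, had 9.94, 9.44, 10.07 and 10.77 at 4 h, against 5.72, 4.69, 5.15 and 6.68 at 1 h, a change of 4.50 ± 0.52 on the log2 scale (SE, n = 4 and 4, limma adjusted p = 1.52e-08). The 1 h arrays were spread widely and none reached the lowest 4 h array. Rgs16, an inhibitor of G protein signalling, had 8.87, 9.15, 10.11 and 10.38 at 4 h, against 5.13, 4.52, 5.31 and 5.83 at 1 h, which is 21.5-fold (limma adjusted p = 1.91e-11). Il4i1, a secreted amino acid oxidase, had 10.53, 8.48, 10.40 and 11.26 at 4 h, against 6.48, 6.22, 6.63 and 7.30 at 1 h and rose by 3.51 ± 0.52 on the log2 scale (SE, n = 4 and 4, limma adjusted p = 1.59e-06). Replicate 2 was the lowest 4 h array for both Il4i1 and Xcl1, and still lay above every 1 h array.

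Il2ra, the alpha chain of the high-affinity interleukin receptor, CD25, had 7.67, 7.64, 8.23 and 7.88 at 4 h, against 4.71, 4.57, 4.80 and 4.44 at 1 h, an at least 7.42-fold rise with 0 of 4 arrays above background at 1 h (limma adjusted p = 1.55e-16). Slc19a1, the reduced folate carrier, had 9.42, 9.72, 9.64 and 9.80 at 4 h, against 6.21, 6.68, 6.2 and 6.63 at 1 h and rose 9.3-fold (limma adjusted p = 1.28e-17). Srm, spermidine synthase of the polyamine pathway, had 10.41, 10.08, 10.64 and 11.10 at 4 h, against 6.97, 7.63, 7.51 and 7.82 at 1 h, a 8.43-fold rise (limma adjusted p = 2.51e-13). In none of these genes did the groups overlap. The other rises among the 15 largest were Akr1c18, a hydroxysteroid dehydrogenase, with 4.66 ± 0.21 (log2, SE), the hydroxybutyrate dehydrogenase gene Bdh2, at least 9.65-fold, the mitotic kinesin Kif15, at least 9.63-fold, the semaphorin Sema7a with 3.43 ± 0.31, the chemokine Cxcl9, at least 5.79-fold, the zinc finger gene Zfp52 with 3.07 ± 0.24 and the sialyltransferase St6galnac4 with 2.90 ± 0.14. Their adjusted p-values lay at or below that of Cxcl9, 1.17e-06 (limma). The other kept probes of St6galnac4 changed by 2.92, 2.74 and -0.05.

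Of the 15 largest falls without overlap, Igfbp4 and Ampd1 ranked highest. Igfbp4, a binding protein for insulin-like growth factors, had log2 signals of 5.76, 5.78, 6.02 and 4.86 at 4 h, against 10.34, 10.70, 10.74 and 9.89 at 1 h, a 28.2-fold lower level at 4 h (limma adjusted p = 2.52e-17). Itgb7, the beta chain of the gut-homing integrin, had 7.40, 7.25, 7.61 and 7.64 at 4 h, against 11.21, 11.24, 11.43 and 11.38 at 1 h, 14.3-fold lower (limma adjusted p = 9.37e-14). Ampd1, an AMP deaminase, had 4.96, 4.94, 4.43 and 4.33 at 4 h, against 8.20, 9.09, 8.68 and 8.58 at 1 h and changed by -3.98 ± 0.24 on the log2 scale (SE, n = 4 and 4, limma adjusted p = 1.35e-14). No 4 h array reached a 1 h value in any of the 3 genes.

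Dtx1, the Notch pathway ubiquitin ligase Deltex, had 4.41, 4.28, 4.24 and 4.23 at 4 h, against 7.40, 8.23, 7.12 and 7.87 at 1 h. It was above background on 0 of 4 arrays at 4 h, so that it was at least 6.69-fold lower (limma adjusted p = 7.06e-15). Trim36, a ubiquitin ligase gene, and Dusp10, a phosphatase of the stress kinases, were brighter at 1 h than at 0 h or 4 h. Trim36 averaged 5.84 ± 0.15 at 0 h, 9.18 ± 0.36 at 1 h and 5.66 ± 0.15 at 4 h (SD, n = 4), and Dusp10 6.54 ± 0.20 at 0 h, 9.49 ± 0.43 at 1 h and 6.30 ± 0.35 at 4 h. From 1 h to 4 h Trim36 changed by -3.52 ± 0.23 on the log2 scale (SE, n = 4 and 4, limma adjusted p = 7.53e-14) and Dusp10 by -3.19 ± 0.22 on the log2 scale (SE, n = 4 and 4, limma adjusted p = 3.02e-13).

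The remaining falls of the 15 largest were Fosb, described below, the membrane protein Emp3 with -3.18 ± 0.20 (log2, SE), the cytoskeletal adaptor Pdlim4 with -3.02 ± 0.26, the calcium-binding annexin Anxa6 with -2.89 ± 0.22, the adhesion receptor Adgre5 (CD97) with -2.88 ± 0.18, the glucocorticoid-activating enzyme Hsd11b1 with -2.80 ± 0.17, the neuronal vesicle protein Nsg2 with -2.78 ± 0.24, Rell1 with -2.78 ± 0.26 and the GM2 ganglioside activator Gm2a with -2.78 ± 0.23. All passed with adjusted p-values at or below that of Fosb, 1.12e-05 (limma). The 30 genes kept their direction and their call under every alternative computed, 570 values in all.

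**Figure D1:**
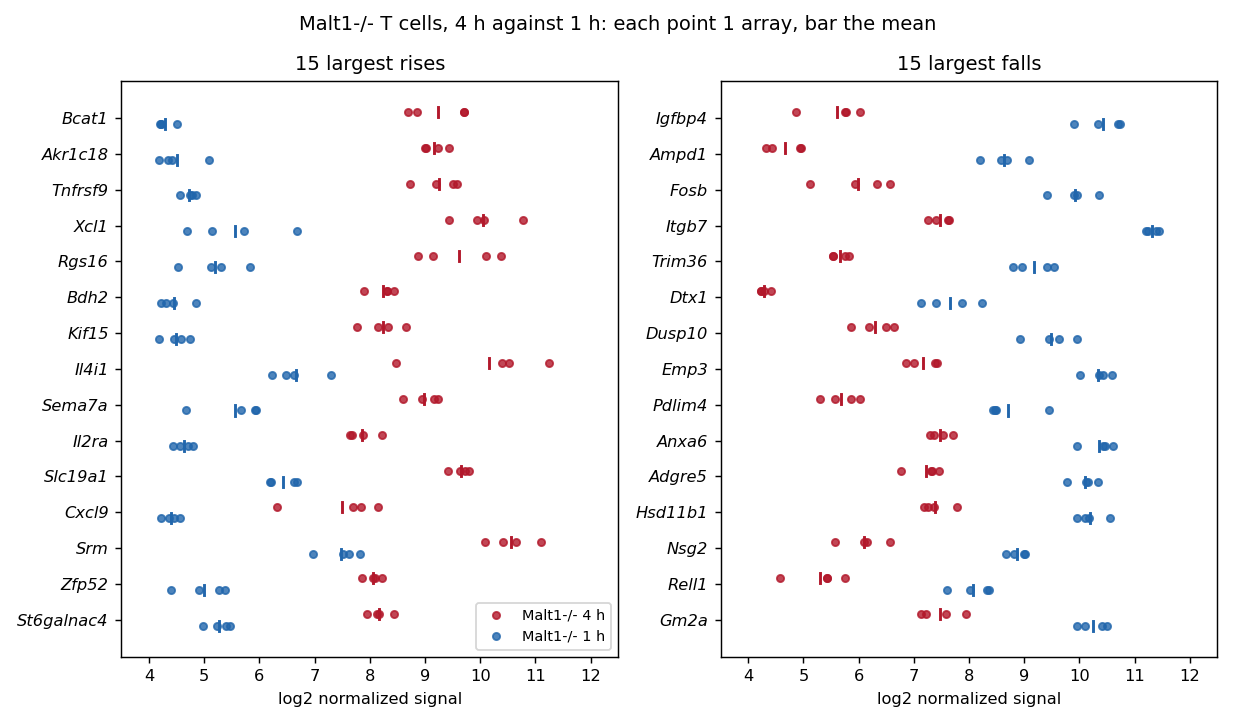
Log2 normalized signals of the 15 largest rises and the 15 largest falls between 4 h and 1 h in Malt1-/- T cells. Each point is 1 array, red for 4 h and blue for 1 h, and each short bar is the mean of 4 arrays. The 4 h and 1 h points do not overlap in any row, which the choice of these genes required.

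The immediate early genes, transcription factors and regulators induced within minutes of receptor engagement, were mostly lower at 4 h than at 1 h. Of 23 measured genes (27 listed) 1 rose (2 with the replicate block), 15 fell and 7 did not pass, with a median change of -1.48. The mean log2 signal of the list was 6.14 ± 0.35 at 0 h, 8.29 ± 0.18 at 1 h and 6.99 ± 0.08 at 4 h (SD, n = 4), so that the 4 h level lay between those of 0 h and 1 h. Fosb, an AP-1 subunit, had 6.57, 5.94, 6.33 and 5.12 at 4 h, against 9.42, 9.91, 9.96 and 10.36 at 1 h, 15.2-fold lower (limma adjusted p = 1.12e-05). Fos had 9.10, 9.10, 8.58 and 8.0 at 4 h, against 11.13, 11.46, 10.89 and 10.58 at 1 h, a change of -2.32 ± 0.69 on the log2 scale (SE, n = 4 and 4, limma adjusted p = 0.0066). Junb had 10.37, 10.05, 10.84 and 10.33 at 4 h, against 12.91, 12.77, 13.32 and 13.22 at 1 h, 6.31-fold lower (limma adjusted p = 6.25e-05). No 4 h value of these 3 AP-1 genes overlapped a 1 h value.

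The zinc finger factors Klf4 (-2.62, log2) and Egr1 (-1.29) and the nuclear receptor Nr4a2 (-1.80) fell as well. Egr2 changed by -1.30 ± 0.23 on the log2 scale (SE, n = 4 and 4, limma adjusted p = 1.79e-05) and Crem, a cyclic AMP response modulator, by -1.68 ± 0.33. Averages of Egr2 were 7.01 ± 0.26 at 0 h, 11.88 ± 0.54 at 1 h and 10.57 ± 0.22 at 4 h (SD, n = 4), with the 4 h level nearer to that of 1 h than to that of 0 h on this scale. Jun, with -1.21, did not pass (limma adjusted p = 0.113). Fosl1, which encodes the late AP-1 subunit FRA1, was the only measured member to rise, by 0.79 ± 0.28 (limma adjusted p = 0.0203). Its call was lost without the 1 h array of replicate 1 or 2 or the 4 h array of replicate 3 or 4, with a change of 0.58 to 0.98 over all 8 omissions. Egr3, whose probe was near background, had a value of -0.08 that did not pass.

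Feedback inhibitors of the receptor's MAP kinase and calcium branches included rises and falls near the shares of all genes (22.4% rose, 22.1% fell). Of 15 measured genes (20 listed) 4 rose, 3 fell and 8 did not pass. The median change was -0.10, which turned to 0.09 under median scaling. Beside Dusp10, the phosphatase gene Dusp1 fell by 1.74 on the log2 scale (limma adjusted p = 0.00906), while the Ras and ERK inhibitor Spred1 rose by 1.6 ± 0.19 and the calcineurin inhibitor Rcan1 by 0.78 ± 0.23 (log2, SE). Rcan1 lost its call without the 1 h array of replicate 1 (0.57, adjusted p = 0.051). Of the genes for NFAT, calcineurin and calcium entry, 13 measured of 18 listed, 2 rose, 6 fell, 5 did not pass, median -0.14. That median was 0.06 under median scaling. The inositol trisphosphate receptor Itpr2 had 7.32, 7.33, 6.93 and 7.21 at 4 h, against 9.5, 9.76, 9.28 and 9.55 at 1 h, 5.01-fold lower (limma adjusted p = 3.94e-12). Nfatc1, the NFAT factor that T cells induce on activation, had 10.73, 10.65, 10.58 and 10.95 at 4 h, against 8.84, 9.57, 9.13 and 9.05 at 1 h and rose 2.99-fold (limma adjusted p = 2.9e-10). In both genes the groups did not overlap. The other kept Nfatc1 probes changed by 1.70, 1.45, 0.60 and -0.40 on the log2 scale, against 1.58 for the probe used.

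**Figure D2:**
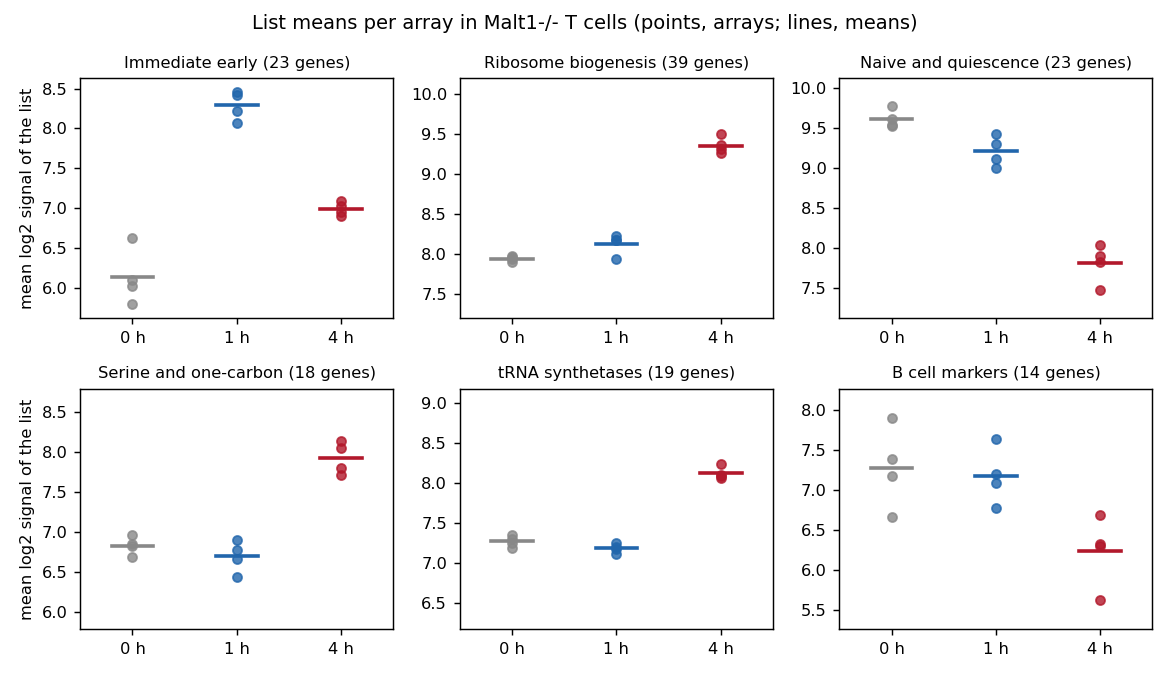
Mean log2 signal of 6 gene lists in Malt1-/- T cells at 0, 1 and 4 h. Points are arrays and lines the means of 4, and every panel spans 3 log2 units. The immediate early list is highest at 1 h, the ribosome biogenesis, one-carbon and tRNA synthetase lists stand apart only at 4 h, and the naive and quiescence list is lowest at 4 h.

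The NF-kB branch was examined through genes known as its targets, since these cells lack the scaffold that leads to it. Of 28 measured genes (32 listed) 12 rose, 5 fell and 11 did not pass, with a median change of 0.74. The rises were led by Tnfrsf9 and Il2ra, given above, and by Irf4, a transcription factor of activated lymphocytes, which had 12.23, 11.83, 11.61 and 11.59 at 4 h, against 10.03, 9.95, 10.21 and 10.57 at 1 h and rose 3.08-fold (limma adjusted p = 1.09e-06). Icam1, an adhesion molecule, had 9.35, 7.33, 8.03 and 8.82 at 4 h, against 7.50, 6.75, 7.69 and 7.58 at 1 h and rose by 1.0 ± 0.32 on the log2 scale (SE, n = 4 and 4, limma adjusted p = 0.0103). Its groups overlapped, and the call was lost without the 4 h array of replicate 1 (0.68, adjusted p = 0.082) or the 1 h array of replicate 2 (0.79, adjusted p = 0.0561). Tnfrsf4, the costimulatory receptor OX40, rose by 0.90 ± 0.19 on the log2 scale (SE, n = 4 and 4, limma adjusted p = 0.000234). Lta, the cytokine lymphotoxin alpha, rose by 0.85 ± 0.30 (limma adjusted p = 0.0209), and lost its call without either array of replicate 4, without the 4 h array of replicate 3 or without the 1 h array of replicate 2 (0.70 to 1.03 over the 8 omissions).

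Feedback inhibitors of the pathway were among the genes that fell. Tnfaip3, which encodes A20, had 9.81, 9.75, 9.57 and 8.92 at 4 h, against 11.46, 11.66, 11.29 and 10.996 at 1 h, 3.58-fold lower (limma adjusted p = 0.00122), with no overlap. Averages were 7.67 ± 1.10 at 0 h, 11.35 ± 0.28 at 1 h and 9.51 ± 0.41 at 4 h (SD, n = 4). Of the NF-kB subunits and IkB genes, 10 measured of 11 listed, 0 rose (1 with the replicate block), 3 fell, 7 did not pass, median -0.22. Those that fell were Nfkbid (-1.32), Nfkbiz (-1.28) and Nfkbie (-0.50). Nfkbie lost its call in 10 of 19 alternatives, among them 4 of 8 omissions of 1 array, those of the 1 h arrays of replicates 3 and 4 and the 4 h arrays of replicates 2 and 3 (-0.67 to -0.30). Nfkbia (-0.19) and Rel (-0.22) did not pass, and Tnf, at -0.09, had overlapping values of 9.15, 9.36, 9.55 and 9.67 at 4 h, against 9.16, 9.23, 9.66 and 10.07 at 1 h. Each of the 3 values turned positive under some alternative, given in the closing section.

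Among genes of the MALT1 complex and its substrates, 14 measured of 18 listed, 1 rose (2 with the replicate block), 4 fell, 9 did not pass, median -0.18. The single rise was Malt1 itself. Bcl10, its partner, had 9.51, 9.44, 9.03 and 9.32 at 4 h, against 9.91, 10.05, 10.30 and 10.35 at 1 h and changed by -0.83 ± 0.18 on the log2 scale (SE, n = 4 and 4, limma adjusted p = 0.000263). Zc3h12a, the substrate gene for Regnase-1, changed by -0.80 ± 0.21 (limma adjusted p = 0.00225), and Cyld by -0.56. Of the mRNA decay regulators, 6 measured of 12 listed, 1 rose, 4 fell, 1 did not pass, median -0.54. The AU-rich element binding protein gene Zfp36 had -1.28, while Zc3h12d, a relative of Regnase-1, had 10.12, 9.79, 9.73 and 10.09 at 4 h, against 7.31, 7.78, 7.55 and 7.93 at 1 h and rose 4.9-fold (limma adjusted p = 1.28e-12).

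Of the cytokines, 12 measured of 21 listed, 3 rose, 0 fell (1 with the replicate block), 9 did not pass, median 0.39. Il3 had 5.71, 4.76, 6.28 and 5.94 at 4 h, against 4.41, 4.16, 4.38 and 4.64 at 1 h, with 3 of 4 arrays above background at 4 h and 0 at 1 h, at least 1.63-fold higher (limma adjusted p = 0.000144). Csf2 (GM-CSF) rose by 0.66 ± 0.20, and Il13 by 0.47 ± 0.17, with the Il13 call lost without either array of replicate 4 (0.37 to 0.56). Neither gene was above background on all 4 arrays of either time, so both sizes rest partly on signals near background. The Csf2 call was lost without background correction (limma adjusted p = 0.0539). Ifng had 6.94, 5.95, 6.95 and 6.32 at 4 h, against 6.37, 5.17, 6.11 and 6.06 at 1 h, which overlapped. Its change of 0.61 ± 0.33 on the log2 scale (SE, n = 4 and 4, limma adjusted p = 0.135) did not pass, and did with the replicate number as a block (limma adjusted p = 0.0183 with the replicate block).

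Of the chemokines, 9 measured of 14 listed, 5 rose, 0 fell (1 with the replicate block), 4 did not pass, median 0.62. Beside Xcl1 and Cxcl9, the interferon-induced chemokine Cxcl10 had 7.89, 7.10, 8.17 and 7.48 at 4 h, against 4.99, 4.67, 5.41 and 4.56 at 1 h, 6.74-fold higher (limma adjusted p = 1.02e-07). Ccl1 had 6.61, 4.65, 5.84 and 6.65 at 4 h, against 4.46, 4.16, 4.28 and 4.22 at 1 h, at least 1.96-fold higher (limma adjusted p = 0.000105). Ccl3 and Ccl4, the macrophage inflammatory proteins, had changes of 0.33 and 0.38 that did not pass. Ccl4 averaged 5.38 ± 0.49 at 0 h, 9.89 ± 0.78 at 1 h and 10.27 ± 0.37 at 4 h (SD, n = 4), so that its 1 h and 4 h levels both lay far above that of 0 h.

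Of the TNF superfamily ligands, 8 measured of 13 listed, 2 rose, 1 fell, 5 did not pass, median -0.10, with the median at 0.11 under median scaling. Fasl, the death ligand, had 7.66, 7.84, 8.16 and 8.18 at 4 h, against 9.21, 9.13, 9.25 and 9.94 at 1 h, 2.68-fold lower (limma adjusted p = 2.62e-08). Of their receptors, 12 measured of 15 listed, 6 rose, 1 fell, 5 did not pass, median 0.53. Of the activation and inhibitory receptors, 17 measured of 21 listed, 7 rose, 4 fell, 6 did not pass, median 0.55. Slamf1 rose by 1.45 ± 0.38 and Cd44 by 1.01 ± 0.27, while Cd226 changed by -1.94 ± 0.22 and Ctla4 by -1.27 ± 0.23 (log2, SE). Cd69, the early activation antigen, had 12.72, 12.81, 12.70 and 12.79 at 4 h, against 12.89, 13.49, 13.27 and 13.33 at 1 h and fell by 0.49 (limma adjusted p = 0.00703). Of the cytokine receptors, 16 measured of 24 listed, 2 rose, 5 fell, 9 did not pass, median -0.41. Ifngr2, a chain of the interferon gamma receptor, had 6.82, 6.69, 6.19 and 6.21 at 4 h, against 8.96, 8.66, 9.18 and 9.40 at 1 h, 5.95-fold lower (limma adjusted p = 4.1e-12).

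Of the STAT genes and their inhibitors, 15 measured of 17 listed, 3 rose, 4 fell, 8 did not pass, median -0.29. Socs3 fell most, with 8.10, 7.37, 7.72 and 7.26 at 4 h, against 10.45, 9.59, 10.18 and 10.10 at 1 h (5.53-fold lower, limma adjusted p = 2.57e-09). Of the T helper lineage factors, 13 measured of 22 listed, 6 rose, 2 fell, 5 did not pass, median 0.50, with the median at -0.002 without the filter on dim probes. Tbx21, which encodes the Th1 factor T-bet, had 6.92, 5.57, 6.08 and 6.49 at 4 h, against 4.38, 4.50, 4.30 and 4.37 at 1 h. It was above background on 4 of 4 arrays at 4 h and 0 of 4 at 1 h, at least 2.46-fold higher (limma adjusted p = 7.81e-07). The interferon-regulated factor Irf8 rose by 2.00 ± 0.36 on the log2 scale (SE, n = 4 and 4, limma adjusted p = 2.31e-05), while Rora changed by -1.57 ± 0.27.

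The interferon-stimulated genes did not move as 1 group. Of 27 measured genes (37 listed) 7 rose, 2 fell (8 with the replicate block) and 18 did not pass, with a median change of 0.16, which was -0.02 without the 4 h array of replicate 1. All 7 that rose encode guanylate-binding or immunity-related GTPases, Gbp2 (2.63), Gbp3 (1.73), Ifi47 (1.71), Igtp (1.29), Tgtp1 (1.18), Irgm1 (0.89) and Irgm2 (0.69), proteins that interferon gamma induces. Irgm2 lost its call without the 1 h array of replicate 4 (0.61, adjusted p = 0.0618), without the 4 h array of replicate 1 (0.53, adjusted p = 0.0977) or without replicate 4 in all groups (0.69, adjusted p = 0.0557). Gbp2 had 13.11, 12.25, 13.03 and 12.63 at 4 h, against 10.35, 10.01, 10.34 and 9.82 at 1 h, 6.17-fold higher (limma adjusted p = 3.18e-08). Igtp had 11.87, 11.61, 11.76 and 11.36 at 4 h, against 10.54, 10.14, 10.58 and 10.18 at 1 h, 2.44-fold higher (limma adjusted p = 3.11e-05). Both genes' groups stood apart without overlap. Mx2, an antiviral GTPase of the dynamin family, and Irf7 fell, by 0.96 and 0.89 on the log2 scale (limma adjusted p = 0.00825 and 0.0417). Irf7 kept its call only without the 1 h array of replicate 2 or the 4 h array of replicate 4, in 2 of 8 omissions of 1 array (-1.03 to -0.71). Isg15 (-0.83) did not pass (limma adjusted p = 0.0949), and did with the replicate block (adjusted p = 0.00457).

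Promoters of these GTPase genes are shown because 6 of the 7 hold a sequence that the rule did not use. Among 32851 RefSeq promoters (GRCm38.p6, 250 bases before to 50 bases after the start), 3.44% hold the core of the interferon-stimulated response element on either strand (2 GAAA repeats with 2 bases between), and so do 3.99% of genes in 1 promoter or more. Of the interferon-stimulated genes 23 had a promoter in the table, and 12 of them (52.2%) hold that motif. They include 6 of the 7 genes with a promoter that rose, Gbp2, Gbp3, Igtp, Irgm1, Irgm2 and Tgtp1, and 6 that did not pass, Bst2, Ddx58, Ifit3, Isg15, Rsad2 and Stat2. Of these Isg15, Ddx58 (-0.65, adjusted p = 0.0482) and Rsad2 (-0.80, adjusted p = 0.0195) fell with the replicate block. The Igtp window lies at chr11:58199306-58199605 on the plus strand and the Gbp3 window at chr3:142559794-142560093 on the plus strand. They are printed from 5′ to 3′ in lower case, with the motif in capitals, 1 match in Igtp and 2 overlapping ones in Gbp3. A match describes the letters and is not a binding site.
Igtp: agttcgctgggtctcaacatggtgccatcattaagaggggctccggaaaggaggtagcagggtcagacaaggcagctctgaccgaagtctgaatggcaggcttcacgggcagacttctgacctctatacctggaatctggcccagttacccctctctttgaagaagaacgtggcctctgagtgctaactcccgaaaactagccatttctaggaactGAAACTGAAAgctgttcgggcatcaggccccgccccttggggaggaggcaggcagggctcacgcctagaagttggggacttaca
Gbp3: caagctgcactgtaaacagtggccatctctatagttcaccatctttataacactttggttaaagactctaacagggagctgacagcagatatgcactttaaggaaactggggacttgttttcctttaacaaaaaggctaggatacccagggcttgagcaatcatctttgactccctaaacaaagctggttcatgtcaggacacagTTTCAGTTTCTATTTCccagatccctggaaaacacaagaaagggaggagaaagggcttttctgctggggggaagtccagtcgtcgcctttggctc

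Genes for building ribosomes rose together. Of 39 measured genes (51 listed) 35 rose, 0 fell and 4 did not pass, with a median change of 1.11, against -0.01 over all genes tested. The mean log2 signal of the list was 9.26 to 9.5 on the 4 h arrays, against 7.94 to 8.22 on the 1 h arrays. The list median stayed between 1.02 and 1.37 under the alternatives. Nop2, a ribosomal RNA methyltransferase of the nucleolus, had 8.55, 8.33, 8.15 and 9.07 at 4 h, against 6.08, 6.02, 5.91 and 6.76 at 1 h, 5.04-fold higher (limma adjusted p = 6.67e-11). Nhp2, a protein of the box H/ACA particles that guide pseudouridylation, had 11.29, 11.33, 11.08 and 11.27 at 4 h, against 9.32, 9.07, 9.02 and 8.96 at 1 h, 4.44-fold higher (limma adjusted p = 1.08e-14). Ncl, which encodes nucleolin, had 9.77, 9.74, 9.74 and 9.85 at 4 h, against 8.20, 7.86, 7.88 and 7.92 at 1 h, 3.5-fold higher (limma adjusted p = 3.63e-13). The 4 h and 1 h arrays did not overlap for any of the 3 genes.

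The 4 measured members without a call were Nolc1 (0.22), Imp3 (0.23), Surf6 (0.43) and Nop56 (1.02). Imp3 passed with the replicate block (adjusted p = 0.0343). Nop56 read 9.67, 10.05, 9.27 and 7.38 at 4 h, against 9.19, 8.93, 8.49 and 5.67 at 1 h, with replicate 4 far below the others at both times, and passed without replicate 4 (0.79, adjusted p = 0.0189). The genes for the ribosome's own proteins had smaller changes. Of the cytosolic ribosomal protein genes, 31 measured of 48 listed, 0 rose (1 with the replicate block), 1 fell (3 with the replicate block), 30 did not pass, median -0.03, a median that was 0.01 under median scaling. Rpl19 was the gene that fell, by 0.31 (limma adjusted p = 0.0222), and its call was lost without the 1 h array of replicate 1 or 4 or the 4 h array of replicate 3 (-0.39 to -0.25). The changes of the list spanned -0.31 to 0.29.

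The promoters of the ribosome biogenesis genes were searched for the E-box CACGTG, which MYC and MAX bind, because ribosome biogenesis genes are known MYC targets. It is found in 7.15% of all promoters, or in 8.09% of all genes with a promoter, and in 7 of the 33 biogenesis genes with a promoter in the table (21.2%), namely Grwd1, Imp4, Ltv1, Mybbp1a, Nop2, Pes1 and Tsr1, all of which rose. The call of Tsr1 was lost without the 1 h array of replicate 2 (0.51, adjusted p = 0.0893) or the 4 h array of replicate 4 (0.52, adjusted p = 0.0871). Of the 33, 29 rose. In the immediate early list it was in 4 of 17 (23.5%), the falling genes Egr2, Klf4, Klf6 and Maff. Among the NF-kB targets it was in 4 of 25 (16%), and among the interferon-stimulated genes in 0 of 23. The Nop2 window is chr6:125131633-125131932 on the plus strand and that of Grwd1, a ribosome assembly chaperone, chr7:45830740-45831039 on the minus strand, with the motif in capitals.
Nop2: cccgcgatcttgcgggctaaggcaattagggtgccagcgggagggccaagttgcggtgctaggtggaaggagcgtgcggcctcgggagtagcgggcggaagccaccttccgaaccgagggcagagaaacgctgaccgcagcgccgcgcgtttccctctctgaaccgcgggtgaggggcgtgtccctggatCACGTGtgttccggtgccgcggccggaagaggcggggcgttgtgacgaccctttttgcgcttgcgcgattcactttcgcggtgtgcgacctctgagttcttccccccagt
Grwd1: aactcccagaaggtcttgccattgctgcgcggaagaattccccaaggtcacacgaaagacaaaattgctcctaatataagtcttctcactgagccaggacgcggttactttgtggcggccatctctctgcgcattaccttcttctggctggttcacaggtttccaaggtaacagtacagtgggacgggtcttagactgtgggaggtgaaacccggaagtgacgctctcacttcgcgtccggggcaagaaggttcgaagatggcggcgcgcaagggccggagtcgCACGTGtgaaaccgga

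The other 6 motifs were searched in the same windows on both strands. In the immediate early list the cyclic AMP response elements TGACGTCA and TGACGTAA were in 1 and 2 of 17 genes, against 1.79% and 0.499% of all promoters (2.03% and 0.581% of all genes), and the AP-1 site TGAGTCA in 1, against 5.2% (5.95% of genes). The CArG box of the serum response element was in 2 of 17, Egr2, which fell, and Srf, which did not pass, against 1.63% of all promoters (1.81% of genes). Of 25 NF-kB target genes with a promoter, 2 (8%), Cyld and Ltb, hold the NF-kB consensus site, against 0.411% of all promoters (0.466% of genes), and 10 hold the NFAT core GGAAAA (40%), against 23.4% of all promoters (26.1% of genes). GGAAAA was also in 11 of 23 interferon-stimulated genes (47.8%), 7 of 33 biogenesis genes (21.2%) and 2 of 17 immediate early genes (11.8%). TGAGTCA was in 4 of 23 interferon-stimulated genes (17.4%), 0 of 33 biogenesis genes and 2 of 25 NF-kB targets (8%). GGAAAA can lie within the reverse complement of the NF-kB site and can overlap the interferon element, and absence from a window says nothing of the factor.

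Myc itself had 7.51, 7.63, 7.26 and 7.06 at 4 h, against 6.73, 5.91, 6.60 and 4.43 at 1 h, with the 1 h array of replicate 4 well below the other 3. It rose by 1.45 ± 0.56 on the log2 scale (SE, n = 4 and 4, limma adjusted p = 0.034). The call was lost in 5 of 8 omissions of 1 array, those of the 1 h arrays of replicates 2 and 4 and of the 4 h arrays of replicates 1, 2 and 3 (0.96 to 1.72), and without the 1 h array of replicate 4 the change was 0.96, adjusted p = 0.182. Over the MYC and MAX network, 7 measured of 11 listed, 1 rose, 1 fell, 5 did not pass, median -0.03, and that median was 0.03 under median scaling.

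Further genes for protein synthesis and its substrates rose. Of the aminoacyl-tRNA synthetases, which charge tRNAs with amino acids, 19 measured of 20 listed, 14 rose, 0 fell, 5 did not pass, median 0.90. Mars1, for methionine, had 7.91, 7.76, 7.84 and 8.14 at 4 h, against 5.97, 6.18, 5.94 and 6.55 at 1 h, 3.37-fold higher (limma adjusted p = 4.67e-09). Lars (1.67) and Wars (1.67) followed. Of the translation initiation factors, 21 measured of 26 listed, 11 rose, 0 fell (1 with the replicate block), 10 did not pass, median 0.49. Eif4ebp1, a repressor of cap-dependent translation, rose by 1.62 ± 0.26 on the log2 scale (SE, n = 4 and 4, limma adjusted p = 4.82e-06). Of the genes for amino acid transport and polyamines, 14 measured of 21 listed, 6 rose, 2 fell, 6 did not pass, median 0.41. Besides Bcat1 and Srm, the large neutral amino acid transporter Slc7a5 had 11.44, 11.52, 11.35 and 11.46 at 4 h, against 10.15, 9.55, 9.88 and 9.91 at 1 h, 2.97-fold higher (limma adjusted p = 1.03e-10), and asparagine synthetase Asns was at least 1.67-fold higher.

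Serine synthesis, the folate cycle and nucleotide synthesis rose as well. Of 18 measured genes (25 listed) 13 rose, 0 fell and 5 did not pass, with a median change of 1.25. Psat1, a transaminase of serine synthesis, had 9.83, 9.62, 9.45 and 9.64 at 4 h, against 7.30, 7.33, 7.15 and 7.07 at 1 h, 5.36-fold higher (limma adjusted p = 1.43e-16). Shmt2, the mitochondrial serine hydroxymethyltransferase, had 7.80, 7.96, 7.81 and 8.36 at 4 h, against 5.71, 5.90, 5.76 and 5.95 at 1 h, 4.45-fold higher (limma adjusted p = 2.31e-13). The other kept Shmt2 probe changed by 0.34 on the log2 scale, against 2.15 for the probe used. Mthfd1, a cytosolic folate enzyme, rose by 1.83 ± 0.14, and Gart, of purine synthesis, by 2.01 ± 0.40 (log2, SE). None of these 4 genes had overlapping groups. The list's mean log2 signal was 6.83 ± 0.11 at 0 h, 6.69 ± 0.19 at 1 h and 7.92 ± 0.20 at 4 h (SD, n = 4).

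Of the genes for glucose uptake and glycolysis, 15 measured of 22 listed, 5 rose, 4 fell, 6 did not pass, median 0.19. Hk2, the inducible hexokinase, had 8.47, 8.91, 9.17 and 9.16 at 4 h, against 6.30, 5.98, 6.99 and 6.41 at 1 h, 5.67-fold higher (limma adjusted p = 1.06e-08), and lactate dehydrogenase Ldha rose by 0.35 ± 0.11, a call lost without replicate 4 in all groups (0.34, adjusted p = 0.061). The list's median was -0.19 without the 1 h array of replicate 4. The glucose transporter gene Slc2a3 (-1.13) and pyruvate dehydrogenase kinase Pdk1 (-1.83) fell. Of the respiratory chain and ATP synthase genes, 25 measured of 29 listed, 14 rose, 1 fell, 10 did not pass, median 0.39. The ATP synthase subunit Atp5g1 rose by 1.33 ± 0.16 on the log2 scale (SE, n = 4 and 4, limma adjusted p = 4.42e-08). Of the cholesterol genes, 16 measured of 25 listed, 5 rose, 1 fell (2 with the replicate block), 10 did not pass, median 0.12. The synthesis enzymes Sqle and Lss rose by 1.77 ± 0.19 and 1.63 ± 0.19, and the cholesterol exporter gene Abcg1 had -1.46.

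The proteasome subunits rose almost throughout. Of 24 measured genes (29 listed) 22 rose, 0 fell and 2 did not pass, with a median change of 0.70. Psmd7, of the regulatory particle, had 9.5, 9.75, 9.84 and 9.95 at 4 h, against 8.38, 8.32, 8.25 and 8.21 at 1 h, 2.77-fold higher (limma adjusted p = 5.47e-13). Psmb1 and Psmd4 did not pass, with -0.03 and 0.16. Of the chaperones, 26 measured of 30 listed, 12 rose, 1 fell (2 with the replicate block), 13 did not pass, median 0.46. The mitochondrial chaperonin Hspd1 rose by 1.34 ± 0.18 on the log2 scale (SE, n = 4 and 4, limma adjusted p = 3.66e-07), a call lost when the probes of a gene were averaged (1.07, adjusted p = 0.158). Hspa1a, the stress-induced HSP70, had overlapping values of 5.90, 4.82, 4.43 and 4.55 at 4 h, against 5.86, 7.04, 6.62 and 5.21 at 1 h and did not pass (limma adjusted p = 0.0504), and passed with the replicate block (adjusted p = 0.0262).

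Genes that mark naive and quiescent T cells were lower at 4 h. Of 23 measured genes (28 listed) 0 rose (1 with the replicate block), 18 fell and 5 did not pass, with a median change of -1.01. Their mean log2 signal was 7.48 to 8.04 on the 4 h arrays, against 9.0 to 9.42 on the 1 h arrays. Il7r, the receptor for the homeostatic cytokine of naive cells, had 7.94, 8.48, 7.96 and 7.36 at 4 h, against 10.57, 10.65, 10.11 and 10.26 at 1 h, 5.51-fold lower (limma adjusted p = 2.49e-10). Klf2, a quiescence factor, had 9.72, 8.91, 9.22 and 9.23 at 4 h, against 11.30, 10.47, 10.81 and 11.10 at 1 h, 3.14-fold lower (limma adjusted p = 2.09e-06). Tsc22d3, the glucocorticoid-induced leucine zipper, changed by -2.20 ± 0.25 and Txnip, an inhibitor of glucose uptake, by -1.74 ± 0.31 (log2, SE). Pik3ip1, an inhibitor of PI3 kinase, read 6.48, 6.51, 6.38 and 4.35 at 4 h, against 8.47, 8.88, 8.17 and 6.92 at 1 h, with replicate 4 the lowest array at both times and no overlap (limma adjusted p = 0.00031).

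Of the homing receptors and integrins, 15 measured of 24 listed, 3 rose, 6 fell, 6 did not pass, median -0.43. Selplg, the selectin ligand, had 8.90, 8.76, 8.51 and 8.47 at 4 h, against 10.84, 10.68, 10.81 and 11.09 at 1 h, 4.58-fold lower (limma adjusted p = 2.52e-13). Cxcr4 fell by 1.74 and Cxcr3 rose by 1.32 ± 0.32 (limma adjusted p = 0.00116). Of the GIMAP GTPases, which support lymphocyte survival, 8 measured of 8 listed, 0 rose, 4 fell, 4 did not pass, median -0.52. Of the G1 cyclins, kinases and inhibitors, 14 measured of 19 listed, 2 rose, 8 fell, 4 did not pass, median -0.48. Ccnd3, the lymphoid D cyclin, had -1.22 with the probe used and -0.02 with its other kept probe. Its call was kept with the mean of both probes (limma adjusted p = 0.0239). Ccng2 had -1.44 and E2f2, above background on 0 of 4 arrays at 4 h, was at least 2.29-fold lower, while E2f3 rose by 0.77 ± 0.16.

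**Figure D3:**
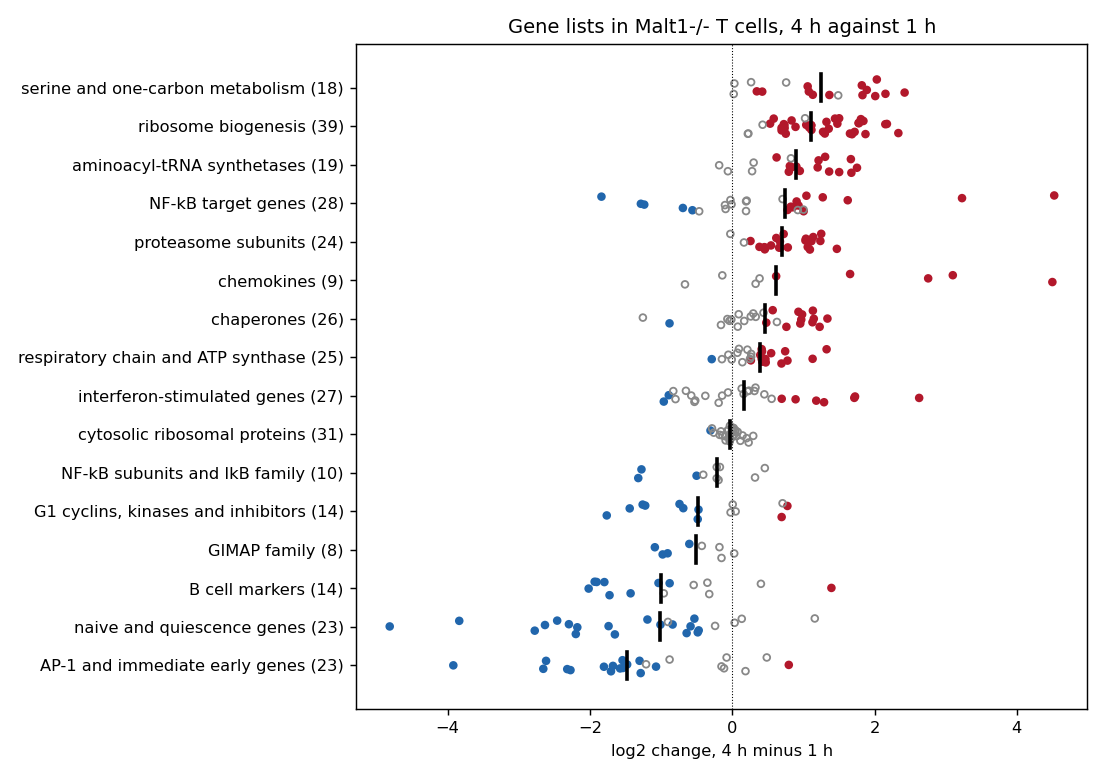
Log2 change between 4 h and 1 h in Malt1-/- T cells of each measured member of 16 gene lists, with the number measured in brackets. Red points rose, blue points fell, open points did not pass, and the black bar is the list's median. The one-carbon, ribosome biogenesis and proteasome lists hold no blue point, the ribosomal protein list is centred near 0, and the immediate early list has 15 blue points and 1 red point.

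Markers of B cells fell as well (8 of 14 measured, against 22.1% of all genes tested), and these values stand beside every fall above. Fewer of the myeloid markers fell (2 of 15), along with 3 of 7 CD8 markers and 2 of 6 NK and cytotoxic genes. Of the B cell markers, 14 measured of 19 listed, 1 rose, 8 fell, 5 did not pass, median -1.0. Their mean log2 signal was 5.63 to 6.70 on the 4 h arrays, against 6.77 to 7.64 on the 1 h arrays. Cd79a, a chain of the B cell receptor, had 5.36, 4.90, 5.53 and 5.70 at 4 h, against 7.20, 6.52, 7.40 and 8.11 at 1 h, 3.82-fold lower (limma adjusted p = 0.000221). Cd79b read 6.95, 5.37, 6.65 and 7.68 at 4 h, against 7.79, 8.02, 7.84 and 8.72 at 1 h, and lost its call without the 4 h array of replicate 2 (-1.0, adjusted p = 0.0501). The single rise was Pou2af1 (1.39), a transcriptional coactivator. Ms4a1, Pax5, Ebf1 and Cr2 were detected on none of the 8 arrays, and 7 of the 17 markers on the array were detected on all 4 h arrays, against 11 on all 1 h arrays. In RNA of mixed cells, fewer cells of a type and less RNA per cell cannot be told apart, and the part of such cells in the falls was not tested.

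Of the myeloid and dendritic cell markers, 15 measured of 24 listed, 0 rose, 2 fell (4 with the replicate block), 13 did not pass, median -0.41, with mean log2 signals of 5.44 to 6.11 on the 4 h arrays, against 6.17 to 6.74 on the 1 h arrays. Lyz1 (lysozyme) had 8.48, 7.55, 7.98 and 8.04 at 4 h, against 10.51, 10.07, 9.95 and 9.62 at 1 h, 4.08-fold lower (limma adjusted p = 4.59e-06). Lyz2, at -1.74, did not pass, with 1 h values from 5.59 to 9.18. It passed with the replicate block (adjusted p = 0.00683). Itgam, Itgax, Fcgr3, Clec7a, Cybb and Spi1 were detected on none of the 8 arrays. Of the CD8 markers, 7 measured of 9 listed, 1 rose, 3 fell, 3 did not pass, median -0.66, and Cd8a was detected on none. Cd8b1 changed by -0.66 ± 0.22 (limma adjusted p = 0.0165) and lost its call without the 1 h array of replicate 4 (-0.49, adjusted p = 0.0898) or the 4 h array of replicate 2 (-0.58, adjusted p = 0.0546). Of the CD4 markers, 5 measured of 5 listed, 0 rose, 0 fell (2 with the replicate block), 5 did not pass, median -0.46.

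Of the NK and cytotoxic genes, 6 measured of 14 listed, 0 rose, 2 fell, 4 did not pass, median -0.48. Nkg7 fell by 1.46 and lost that call without the 1 h array of replicate 4 or the 4 h array of replicate 1 or 2 (-1.74 to -1.19). Of the gamma-delta markers, 2 measured of 7 listed, 0 rose, 1 fell (2 with the replicate block), 1 did not pass, median -0.81. Of the plasma cell markers, 3 measured of 8 listed, 1 rose, 2 fell, 0 did not pass, median -0.28, the rise being Irf4. Of the erythroid and platelet markers, 3 measured of 12 listed, 0 rose, 0 fell, 3 did not pass, median -0.14, with the median at 0.22 without the 1 h array of replicate 3. Of the T cell identity markers, 10 measured of 12 listed, 3 rose, 2 fell, 5 did not pass, median -0.07, with the median at 0.08 under median scaling. Cd5 rose by 0.98 ± 0.18 and Cd6 by 0.71 ± 0.11, and Thy1 changed by -1.41 ± 0.21 (log2, SE). Of the regulatory T cell markers, 14 measured of 18 listed, 6 rose, 1 fell (2 with the replicate block), 7 did not pass, median 0.17. Foxp3 had overlapping values with a difference of 0.01.

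The same step in cells with 1 working allele addressed which of these changes differ in the absence of MALT1. In Malt1+/- cells 3998 genes passed (52.7%), and in Malt1PM/- cells 3625 (47.8%). The Malt1-/- and Malt1+/- steps share no arrays. They had 2995 calls in the same direction, 88.6% of the Malt1-/- calls and 74.9% of the Malt1+/- calls, and 9 in opposite directions. Across the 7585 genes the changes of both genotypes correlated at r = 0.931, a description over genes that share probes and 1 normalization. With Malt1PM/- cells 2865 calls were shared in direction, 84.7% of the Malt1-/- calls and 79.0% of the Malt1PM/- calls, with 7 opposite and r = 0.934.

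The size of the step was compared on genes chosen in Malt1PM/- arrays alone, those that passed there with at least a 2-fold change. Over the 703 rises the mean step, each 4 h array minus the 1 h array of the same number, was 1.29, 1.33, 1.33 and 1.41 in Malt1-/- cells, against 1.58, 1.68, 1.69 and 1.72 in Malt1+/- cells. The means were 1.34 ± 0.05 in Malt1-/- and 1.67 ± 0.06 in Malt1+/- cells (log2, SD, n = 4 each), 80.2% of the Malt1+/- step. The groups did not overlap, and the exact two-sided permutation test gave p = 0.0286, the smallest that 4 against 4 allow. The test takes the steps of the 2 genotypes as unpaired. After group centring their same-numbered arrays correlated at 0.287 to 0.744 at 1 h and at 0.108 to 0.587 at 4 h. Over the 747 falls the mean step was -1.27, -1.42, -1.36 and -1.51 in Malt1-/- cells, against -1.55, -1.73, -1.81 and -1.82 in Malt1+/- cells, with means of -1.39 ± 0.10 in Malt1-/- and -1.73 ± 0.12 in Malt1+/- cells, 80.6% in size (exact p = 0.0286). Adjusted over these 2 comparisons both p-values were 0.0286, and the Malt1-/- step was the smaller in 4 of 4 numbers. The deepest fall of Malt1-/- cells, -1.51, lay next to the shallowest of Malt1+/- cells, -1.55. With median scaling the share was 87.3% for the rises (exact p = 0.286) and 69.8% for the falls (exact p = 0.0286).

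**Figure D4:**
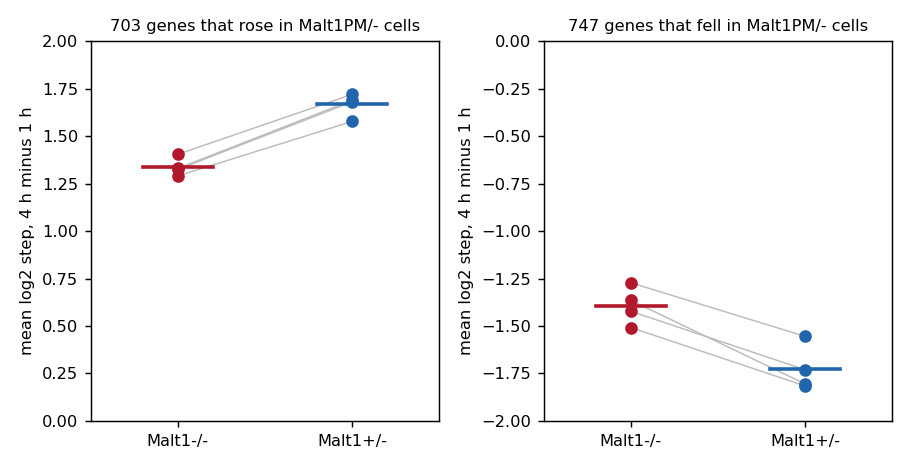
Mean log2 step between 4 h and 1 h, per replicate number, over genes that rose (left) or fell (right) at least 2-fold in Malt1PM/- cells. Points are replicate numbers, lines join the same number in both genotypes and short bars are means. Every Malt1-/- point lies nearer to 0 than every Malt1+/- point.

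Gene by gene, the difference of the steps passed for 117 genes between Malt1-/- and Malt1+/- cells (1.54%), 75 with a positive difference (0.989%) and 42 with a negative one (0.554%). An unadjusted p under 0.05 was reached by 833. The count depended on the scaling, since with median scaling 7 passed, 0 positive and 7 negative, with the median difference of all genes at 0.14. The count was 68 or 71 without the 4 h Malt1+/- array of replicate 4 or 3, 69 without the 1 h Malt1-/- array of replicate 3, and 76 without the 4 h Malt1-/- array of replicate 1 or of replicate 2. Lad1, an anchoring filament protein of epithelia, had the most negative difference, with steps of 1.44 in Malt1-/- and 4.66 in Malt1+/- cells and a difference of -3.21 ± 0.40 (SE, limma adjusted p = 1.29e-05). In Malt1-/- cells it read 5.41, 4.84, 6.10 and 6.38 at 4 h, against 4.19, 4.15, 4.32 and 4.29 at 1 h. At 4 h the Malt1+/- arrays read 9.40, 7.75, 9.06 and 9.46, all above the Malt1-/- arrays. Pdgfb, a platelet-derived growth factor chain, had steps of 1.46 in Malt1-/- and 4.44 in Malt1+/- cells, which differed by -2.98 ± 0.48 (SE, limma adjusted p = 0.000426). On all 1 h arrays Lad1, Bdh2, Idi2 and Utf1 were below background in both genotypes, Tnfsf14, Cd200 and Id1 in Malt1-/- cells and Akr1c18 in Malt1+/- cells. For these the step of that genotype is a fitted value from signals near background, and neither it nor the difference of steps is a measured size.

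Bcl2l1, the survival gene of BCL-XL, had steps of 0.92 in Malt1-/- and 3.52 in Malt1+/- cells. The difference of -2.60 ± 0.68 (SE, limma adjusted p = 0.0428) lost its call in 16 of 26 alternatives (adjusted p up to 0.697), and its Malt1-/- values of 6.10, 5.35, 5.83 and 4.44 at 4 h, against 4.49, 5.0, 4.36 and 4.2 at 1 h overlapped. The Malt1-/- step alone did not pass (limma adjusted p = 0.126) and did with the replicate block (adjusted p = 0.0228). Tnfrsf4 (OX40) had steps of 0.90 in Malt1-/- and 2.38 in Malt1+/- cells, differing by -1.48 ± 0.27 (SE, limma adjusted p = 0.00168). The Tnfrsf4 call was lost in 2 of 27 alternatives, median scaling among them (limma adjusted p = 0.697). Tnfsf14 (LIGHT), a TNF family ligand, had steps of 1.0 in Malt1-/- and 2.84 in Malt1+/- cells, differing by -1.84 ± 0.43 (SE, limma adjusted p = 0.0181). Its call was lost in 5 of 27 alternatives, the authors' processed table among them (limma adjusted p = 0.162). The other negative differences among the 10 largest were in Sytl3 (-2.41), Utf1 (-1.90), Idi2 (-1.81), Cd200 (-1.48) and Id1 (-1.34). The call was lost in 3 of 26 alternatives for Cd200 and in 1 of 26 for Id1. Median scaling was among them for both (limma adjusted p = 0.9998 for Cd200 and 0.0556 for Id1). In Malt1-/- cells Utf1 was above background on no array at either time, and Id1 likewise.

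Among the positive differences, Akr1c18 and Bdh2 had the larger fitted steps in Malt1-/- cells, with steps of 4.66 in Malt1-/- and 2.61 in Malt1+/- cells for Akr1c18, differing by 2.05 ± 0.29 (SE, limma adjusted p = 6.37e-05), and of 3.78 in Malt1-/- and 2.34 in Malt1+/- cells for Bdh2, differing by 1.44 ± 0.24 (SE, limma adjusted p = 0.000548). Cldn10, a tight junction claudin, moved in opposite directions, with steps of 1.14 in Malt1-/- and -0.87 in Malt1+/- cells and a difference of 2.01 ± 0.28 (SE, limma adjusted p = 6.35e-05). Its Malt1-/- values were 8.84, 8.24, 8.20 and 8.60 at 4 h, against 7.16, 7.34, 7.54 and 7.29 at 1 h. Its Malt1+/- values were 6.07, 5.98, 5.55 and 6.19 at 4 h, against 6.85, 6.65, 7.04 and 6.71 at 1 h. Dhrs1, a short-chain dehydrogenase, had steps of 1.66 in Malt1-/- and -0.15 in Malt1+/- cells, differing by 1.81 ± 0.38 (SE, limma adjusted p = 0.00747). The remaining 6 were Klrd1 (1.74), Tmc6 (1.6), Mical1 (1.48), Klhl6 (1.47), Nrp1 (1.46) and Bcl2 (1.45), all with negative steps in Malt1+/- cells. These positive calls were not kept under median scaling.

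**Figure D5:**
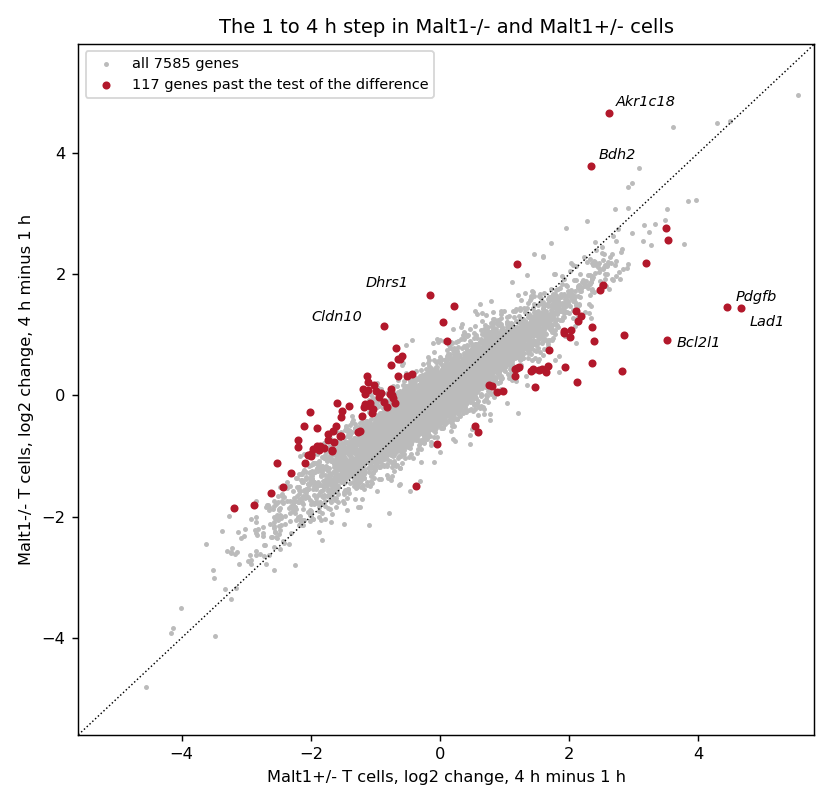
Log2 change between 4 h and 1 h in Malt1-/- T cells (vertical axis) against Malt1+/- T cells (horizontal axis). Grey points are all 7585 genes, red points the 117 whose steps differed in limma, and the dotted line marks equal steps. Akr1c18 and Bdh2 lie above the line and Lad1, Pdgfb and Bcl2l1 far below it.

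Between Malt1-/- and Malt1PM/- cells 16 genes differed in their step (0.211%), 12 positively (0.158%) and 4 negatively (0.0527%), and 422 had an unadjusted p under 0.05. With median scaling 2 passed. Leaving out 1 array gave 4 without the 4 h Malt1PM/- array of replicate 1 or the 1 h Malt1-/- array of replicate 3, 5 without the 4 h Malt1PM/- array of replicate 3 or the 4 h Malt1-/- array of replicate 4, and 6 without the 1 h Malt1-/- array of replicate 1. It gave 9 and 10 without the 1 h Malt1PM/- arrays of replicates 2 and 1, 10 without the 1 h Malt1-/- array of replicate 4 and 29 without the 4 h Malt1PM/- array of replicate 2. Cldn10 again moved in opposite directions, with steps of 1.14 in Malt1-/- and -1.19 in Malt1PM/- cells and a difference of 2.33 ± 0.28 (SE, limma adjusted p = 1.93e-05). Akr1c18 had steps of 4.66 in Malt1-/- and 2.74 in Malt1PM/- cells, differing by 1.92 ± 0.29 (SE, limma adjusted p = 0.000963), and Bdh2 of 3.78 in Malt1-/- and 2.53 in Malt1PM/- cells, differing by 1.25 ± 0.24 (SE, limma adjusted p = 0.0188). Prnp, the prion protein gene, had the most negative difference, with steps of 0.72 in Malt1-/- and 3.06 in Malt1PM/- cells, differing by -2.33 ± 0.52 (SE, limma adjusted p = 0.0475). Lad1 followed with a difference of -1.94, then Il3 with steps of 1.27 in Malt1-/- and 2.92 in Malt1PM/- cells, differing by -1.65 ± 0.37 (SE, limma adjusted p = 0.0475), and Idi2 with -1.13. The calls were lost in 18 of 27 alternatives for Prnp, 14 of 27 for Lad1, 17 of 26 for Il3 and 3 of 26 for Idi2. On all 1 h arrays Lad1, Idi2, Bdh2 and Eml1 were below background in both genotypes, Il3 in Malt1-/- cells and Akr1c18 in Malt1PM/- cells, so that those steps and differences are likewise fitted values. Cd3g, a chain of the T cell receptor complex, had a difference of 0.83 ± 0.16 (SE, limma adjusted p = 0.0188), with steps of -0.02 in Malt1-/- and -0.85 in Malt1PM/- cells. The 10 largest positive differences also held Angptl4 (1.38), Ephx1 (1.36), Eml1 (1.22), Cep19 (1.20), Fxyd5 (1.16) and Arhgdib (0.88). Of 27 alternatives the call was lost in 18 for Eml1, 16 for Fxyd5, 13 for Angptl4, 12 for Arhgdib, 9 for Cep19, 6 each for Ephx1 and Bdh2, 4 for Cd3g and 1 each for Cldn10 and Akr1c18. Both sets of differences share the Malt1-/- arrays.

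By list, differences from Malt1+/- cells were called for 4 of 18 receptor complex and proximal signalling genes, 3 of 10 T cell identity markers, 4 of 14 regulatory T cell markers, 2 of 12 TNF receptors, 2 of 17 activation and inhibitory receptors, 2 of 19 BCL2 family and caspase genes, 2 of 23 immediate early genes and 2 of 28 NF-kB targets, against 1.54% of all genes tested. A single call was made among 8 TNF ligands, 7 CD8 markers, 13 NFAT and calcium genes, 15 feedback inhibitors, 15 STAT genes and inhibitors and 18 serine and one-carbon genes, and none in the other lists, such as the 39 ribosome biogenesis genes. The lists share genes, so a call can be counted in more than 1 of them. Tnfrsf4, for example, is both a regulatory T cell marker and an NF-kB target. Egr1 was among the immediate early genes, with steps of -1.29 in Malt1-/- and -2.31 in Malt1+/- cells and a difference of 1.02 ± 0.25 (SE, limma adjusted p = 0.0297). Of the receptor complex and proximal signalling genes themselves, 18 measured of 22 listed, 1 rose, 6 fell, 11 did not pass, median -0.18, a median that was 0.02 under median scaling. Cd3e had steps of -0.13 in Malt1-/- and -0.69 in Malt1+/- cells, differing by 0.57 ± 0.14 (SE, limma adjusted p = 0.0333). With median scaling 0 positive differences from Malt1+/- cells passed, so the calls of Egr1 and Cd3e were lost there.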

How the data were processed

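The members and gene lists were chosen with earlier results of these data known. Probe intensities were deposited as non-normalized values on a linear scale, per the file headers, each with a detection p-value from the authors' software (GenomeStudio 2011.1, per the submitters' processing notes). The authors also deposited processed intensities, whose scaling is not given in the sources used here. They hold negative values and share the 75th percentile (42.6) on all arrays, and served as an alternative with values under 8 set to 8. Per the labels, cRNA was biotinylated with the Ambion MessageAmp kit.

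Intensities were corrected by normexp with the background inferred from detection p-values, then normalized across arrays by quantiles as log2 values with an offset of 16 (neqc, limma 3.58.1, R 4.3.3, statmod 1.5.0). Probes detected (p under 0.01) on at least 4 arrays were kept, 10961 of 25697, and the brightest probe stood for each of 7585 genes (1985 had several). A probe without 1 symbol (1719) was left out. The model had 1 mean for each of 9 groups over 36 arrays (27 residual degrees of freedom) and moderated variances, and was tested on simulated data. Contrasts were the 4 h minus 1 h step per genotype and its differences. Named genes are the 15 largest rises and falls without overlap, the 10 largest differences of steps each way, Malt1 and members of the 46 lists. For a group without any array above background, the fold is a bound against the lowest detected signal or the probe's own, whichever was higher. Same-numbered Malt1-/- arrays correlated after group centring at 0.308 to 0.661 (others at a median of -0.227). The labels give the numbers without their meaning. They were taken to pair this step only in the replicate block. The main fit had no term for them, so its p-values and counts are unpaired. Alternatives changed the scaling, background, filter, probe choice, arrays, weights and block, or left out arrays. Promoters are RefSeq's, GRCm38.p6.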

Additional observations from a re-analysis of the deposited data

Results flagged for a closer look

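In 508 groups of 4 Malt1-/- arrays, the values of single genes or list means were searched for an array whose gap to the nearest other made up most of the group's range (Dixon's ratio). It was found in 25 of them, and chance alone marks about 1 in 20. All values are log2 signals, given with the nearest other array of the group in brackets. The Malt1-/- 4 h array of replicate 1 stood apart for Nfkbiz at 8.98 (highest array, next 8.43) and Pdk1 at 7.21 (highest array, next 6.63). The Malt1-/- 4 h array of replicate 2 stood apart for Casp4 at 5.70 (lowest array, next 6.77), Surf6 at 5.27 (lowest array, next 6.05), Jun at 5.52 (lowest array, next 6.34), Nfkbid at 11.54 (highest array, next 11.21) and Thy1 at 9.91 (lowest array, next 10.85). The Malt1-/- 4 h array of replicate 3 stood apart for the mean of erythroid and platelet markers at 5.90 (highest array, next 4.66). The Malt1-/- 4 h array of replicate 4 stood apart for Gart at 9.35 (lowest array, next 10.10) and Pik3ip1 at 4.35 (lowest array, next 6.38). The Malt1-/- 1 h array of replicate 1 stood apart for Nfkbid at 12.34 (lowest array, next 12.66). The Malt1-/- 1 h array of replicate 2 stood apart for Pes1 at 6.13 (lowest array, next 7.08), Dhrs1 at 6.62 (lowest array, next 7.64), Cd3e at 11.67 (highest array, next 11.52), Rel at 6.61 (lowest array, next 7.38), Nfkbiz at 10.47 (highest array, next 9.67), Pdlim4 at 9.44 (highest array, next 8.49) and the mean of chemokines at 5.43 (lowest array, next 6.05). The Malt1-/- 1 h array of replicate 4 stood apart for Bcat1 at 4.50 (highest array, next 4.22), Pdgfb at 5.44 (highest array, next 4.46), Fasl at 9.94 (highest array, next 9.25), Lyz2 at 5.59 (lowest array, next 8.72), the mean of MALT1 complex and substrates at 8.15 (lowest array, next 8.31), the mean of MYC and MAX network at 5.47 (lowest array, next 5.87) and the mean of NK and cytotoxic genes at 6.50 (highest array, next 6.11).

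Other results were marked because a step differed between genotypes in limma. Values are differences of the 4 h minus 1 h step on the log2 scale. For Lad1, Bdh2, Idi2, Utf1, Tnfsf14, Cd200, Id1, Akr1c18, Eml1 and Il3 a genotype was below background on all 1 h arrays, so that the value is fitted from signals near background. The Malt1-/- step was higher than the Malt1+/- step for Akr1c18 (2.05), Cldn10 (2.01), Dhrs1 (1.81), Klrd1 (1.74), Tmc6 (1.6), Mical1 (1.48), Klhl6 (1.47), Nrp1 (1.46), Bcl2 (1.45) and Bdh2 (1.44). It was lower than the Malt1+/- step for Lad1 (-3.21), Pdgfb (-2.98), Bcl2l1 (-2.60), Sytl3 (-2.41), Utf1 (-1.90), Tnfsf14 (-1.84), Idi2 (-1.81), Tnfrsf4 (-1.48), Cd200 (-1.48) and Id1 (-1.34). It was higher than the Malt1PM/- step for Cldn10 (2.33), Akr1c18 (1.92), Angptl4 (1.38), Ephx1 (1.36), Bdh2 (1.25), Eml1 (1.22), Cep19 (1.20), Fxyd5 (1.16), Arhgdib (0.88) and Cd3g (0.83), and lower than the Malt1PM/- step for Prnp (-2.33), Lad1 (-1.94), Il3 (-1.65) and Idi2 (-1.13).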

How the results depend on the processing

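The count of genes that changed between 4 h and 1 h in Malt1-/- cells was 3063 to 4000 under every alternative except median scaling (1503), and 3039 to 3220 when 1 Malt1-/- array was left out. Median scaling gave 2356 genes in Malt1+/- and 1865 in Malt1PM/- cells, 219 called members of the gene lists (340 with quantile normalization), and 7 and 2 differences of steps. For the differences from Malt1+/- and from Malt1PM/- cells, other counts were 60 and 2 with only the arrays compared, 361 and 25 with array weights and 49 and 4 without replicate 4 in all groups. Without background correction 181 differed from Malt1+/- cells. Leaving out 1 array gave 68 to 156 and 4 to 29, fewest without the 4 h Malt1+/- array of replicate 4 (68), and without the 4 h Malt1PM/- array of replicate 1 or the 1 h Malt1-/- array of replicate 3 (4 each). The replicate block gave 4000 genes for the Malt1-/- step, 292 and 52 differences as a fixed term and 280 and 42 as a random one. The block changed calls of the Malt1-/- step among named genes only from not passed to passed. Same-numbered arrays of Malt1+/- cells at 4 h and 1 h correlated as low as 0.07, and of Malt1-/- and Malt1PM/- cells at 4 h as low as -0.07, so the numbers were not taken to pair the differences. The step size share ran from 79.7% to 80.7% for rises and 79.7% to 82.4% for falls without 1 replicate number, where exact p = 0.1 is the smallest possible, and was 87.3% for rises with median scaling. The cause of these shifts was not tested, other than that fewer arrays entered.

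Of 3956 alternative values for the Malt1-/- step of named genes, 3749 kept direction and call, 112 lost the call, 63 gained it and 32 turned sign, none of them from a called value. Of 911 values for named differences 176 lost the call and 0 turned. The turned values were, with median scaling, Cd3g (0.0712), Psmb1 (0.173), Bst2 (0.25), Tnf (0.0988), Ltb (0.122), Srf (0.0999), Mical1 (0.138), Cd3e (0.0837), Fxyd5 (0.00371), Nfkbia (0.0172) and Rel (0.00923). With the mean of a gene's probes they were Bcl2 (-0.0609), Foxp3 (-0.0256) and Srf (0.0443), with array weights Foxp3 (-0.0319) and Bst2 (0.202), and without replicate 4 in all groups Bst2 (0.371) and Tnf (0.00542). When 1 Malt1-/- array was left out, values of both signs were met for Ccl3 (-0.0364 to 0.566), Foxp3 (-0.11 to 0.119), Cd3g (-0.105 to 0.0578), Bst2 (-0.333 to 0.33), Ltb (-0.494 to 0.22), Tnf (-0.219 to 0.085), Stat2 (-0.105 to 0.386), Psmb1 (-0.0632 to 0.0145), Ephx1 (-0.0521 to 0.242) and Nfkbia (-0.504 to 0.00595). Signals near background limit what dim genes can show, and 4 arrays a group limit the precision.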

Other observations

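Of the BCL2 family and caspase genes, 19 measured of 27 listed, 3 rose (5 with the replicate block), 2 fell (4 with the replicate block), 14 did not pass, median 0.12, which is the list that regulates cell death. Bid, a pro-apoptotic link between death receptors and mitochondria, had 7.58, 7.09, 7.42 and 7.93 at 4 h, against 5.66, 5.49, 5.64 and 6.01 at 1 h, 3.5-fold higher (limma adjusted p = 6.48e-11). The other kept Bid probe changed by -0.10, against 1.81 for the probe used. Mcl1, a short-lived survival protein, had 10.67, 10.16, 10.02 and 10.005 at 4 h, against 10.76, 11.24, 10.83 and 10.96 at 1 h and fell by 0.73 on the log2 scale (limma adjusted p = 0.002), a call lost under median scaling. Casp4 had 6.77, 5.70, 6.93 and 6.92 at 4 h, against 6.05, 4.55, 5.02 and 5.86 at 1 h, with overlap. Its rise of 1.21 ± 0.38 (limma adjusted p = 0.00976) lost its call without the 1 h array of replicate 2 (0.94, adjusted p = 0.0576). The Casp4 call was also lost with the mean of its probes (limma adjusted p = 0.128), of which the others changed by 0.40 and -0.07. The list's median turned negative when the probes of a gene were averaged (-0.01) and when genes had to be detected on all 4 arrays of a Malt1-/- group (-0.08).

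Of the DNA replication genes, 20 measured of 29 listed, 3 rose (6 with the replicate block), 4 fell, 13 did not pass, median 0.05. Cdt1, which loads the replicative helicase, had 8.62, 8.54, 8.66 and 8.64 at 4 h, against 9.72, 9.81, 9.99 and 9.94 at 1 h, 2.38-fold lower (limma adjusted p = 7.83e-10), with no overlap. Of the helicase subunits, Mcm5 (0.51) and Mcm6 (0.89) rose and Mcm4 fell (-0.88), and the calls of Mcm5 and Mcm4 were lost under median scaling. The list's median was -0.003 without the 4 h array of replicate 3. Pold2, a DNA polymerase delta subunit, had 8.65, 8.66, 9.34 and 9.16 at 4 h, against 7.18, 7.72, 7.80 and 7.58 at 1 h and rose by 1.38 ± 0.22 on the log2 scale (SE, n = 4 and 4, limma adjusted p = 3.12e-06). Of the housekeeping genes, 9 measured of 14 listed, 3 rose, 2 fell, 4 did not pass, median 0.29, with Gusb (0.95), Gapdh (0.41) and Hprt (0.34) as the rises and Actb at 0.29 without a call. Gapdh lost its call under median scaling, without replicate 4 in all groups (0.36, adjusted p = 0.054), without the 1 h array of replicate 2 (0.35, adjusted p = 0.0505) or without the 4 h array of replicate 4 (0.33, adjusted p = 0.065). Hprt lost its call under median scaling, with the mean of its probes (0.24, adjusted p = 0.311) and with only the arrays compared.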
